A study of Mus musculus with 8 samples.

Results

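The 9 genes described here are the 3 TGF-beta ligands Tgfb1, Tgfb2 and Tgfb3, the 4 Id genes Id1, Id2, Id3 and Id4, and the inhibitory Smads Smad6 and Smad7, followed in wild-type and Dino lox/lox mouse embryonic fibroblasts (MEFs) with and without DNA damage. They were chosen by name, as ligands of the pathway and as classical genes that TGF-beta or BMP signals switch on. The choice was made with earlier results of these data known. The count table had a row for 9 of the 9, among 30419 gene names. All 9 also passed the filter on low counts that left 12255 genes for testing.

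TGF-beta ligands are secreted in a latent form, and once freed they bind a pair of type I and type II receptor kinases that phosphorylate Smad2 and Smad3. BMPs do the same through Smad1, Smad5 and Smad9, and both branches share Smad4, which carries the complex to DNA. Smad6 and Smad7 are targets that block the receptors in a feedback loop, while Id proteins, typical BMP targets, bind basic helix-loop-helix (bHLH) transcription factors such as the E proteins and keep them from DNA. In fibroblasts the TGF-beta branch is best known for driving matrix production, and Id genes for holding back differentiation and cell cycle exit.

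Dino is a long noncoding RNA that p53 induces after DNA damage. The cells were early-passage MEFs from E13.5 embryos, grown in medium with serum, and either wild type (Dino +/+, WT) or Dino lox/lox, which the labels call mutant. The labels do not say whether a Cre recombinase had acted on the loxP sites, and the level of Dino itself was not analysed here. Each genotype received 0.2 µg/mL doxorubicin, a topoisomerase II poison that breaks DNA, or vehicle alone, and RNA was taken after 8 h. This gave 4 groups (WT control, WT doxorubicin, mutant control, mutant doxorubicin) of n = 2 libraries, lettered A and B. The labels do not say whether A and B came from separate embryos or cultures, and the spread behind the p-values may then be technical only.

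Total counts ran from 25482805 to 33285171 per library, and 3 counts, the most that a count of 0 allows, amount to 0.0880 to 0.120 CPM, counting error only. CPM, the unit of all levels below, is a gene's count scaled to a common library size with TMM factors. Levels are compared between groups and never between genes, since no transcript length was applied. Libraries A and B of a group differed beyond counting noise in all 4 groups (a chi-square over genes, divided by its degrees of freedom, was 5.34 to 17.3 and highest in WT doxorubicin), so none is a copy of the other. The fibroblast markers were present throughout (summed level of 10 genes 3459 to 4272 CPM, all 10 tested), and Mdm2, the classical p53 target, rose with doxorubicin from a mean of 136 to 1158 CPM in WT and from 140 to 1051 CPM in mutant cells. The genotypes also differed in genes of the sex chromosomes. Xist, the RNA of the inactive X, had a mean of 0.277 CPM in WT control and 233 CPM in mutant control, and 4 Y-linked genes (Ddx3y, Eif2s3y, Kdm5d, Uty) stood in mutant control at 11.8% to 15.5% of WT control. In every comparison of genotypes, embryo, sex of the cells and Dino allele therefore cannot be told apart.

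Doxorubicin moved 5 of the 9 genes in at least 1 genotype. Id2 rose about 2-fold in both genotypes, Id3 fell by 1.72-fold in WT and 2.00-fold in mutant cells, and Tgfb3 fell by about 1.5-fold in both. Tgfb2 rose by 1.21-fold in WT cells, and Id4 fell by 1.18-fold in mutant cells. Tgfb1, Id1, Smad6 and Smad7 passed the test in neither response. By edgeR's quasi-likelihood test at an adjusted p under 0.05, the WT response held 2 members that rose and 2 that fell, and 57.4% of all genes tested were called in that response (29.3% higher, 28.1% lower). The mutant response held 1 that rose and 3 that fell, against 54.2% of all genes (28.3% higher, 25.9% lower). The share of members called, 4 of 9 in each genotype, was thus near or below the background of all genes. The median log2 fold change of the 9 was -0.02 in WT and -0.13 in mutant cells, beside 0.01 over all genes tested in each.

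**Figure D1:**
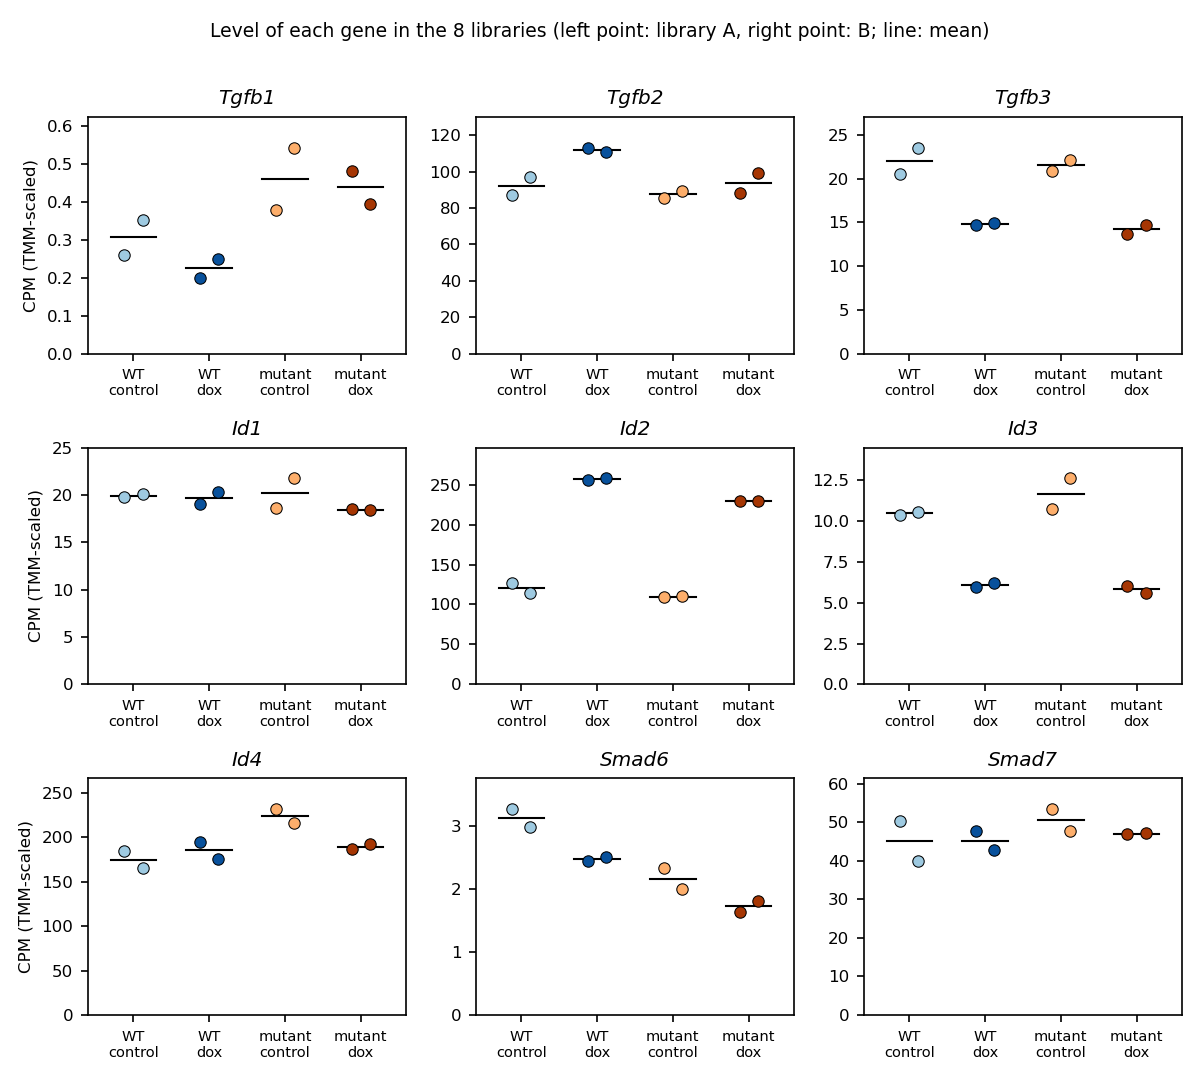
Level of each of the 9 genes in CPM (linear axis from 0, one panel per gene) in the 4 groups, with one point for each library and a line at the mean of the 2. Id2 stands at 109 to 126 CPM in the 4 control libraries and at 229 to 258 CPM in the 4 doxorubicin libraries, while Id3 and Tgfb3 are lower in all doxorubicin libraries and Id4 is highest in mutant control.

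Among the ligands, Tgfb1 was close to the limit of detection. Its counts were 7 and 12 in WT control, 6 and 8 in WT doxorubicin, 11 and 16 in mutant control, and 12 and 10 in mutant doxorubicin, or 0.199 to 0.542 CPM. The fitted response was -0.46 ± 0.55 (log2 fold change ± SE) in WT and -0.07 ± 0.47 in mutant cells, and with intervals of -1.59 to 0.68 and -1.05 to 0.91 neither a fall nor a rise of 1.5-fold was detectable at this depth. Tgfb1 is therefore reported by its counts, and no order of the groups is read from them.

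Tgfb2, the ligand known from heart, eye and skeletal development, was at 87.1 and 96.99 CPM in WT control and at 113 and 111 CPM in WT doxorubicin. The mutant cells held it at 85.6 and 89.4 CPM without and 88.1 and 99.5 CPM with the drug. Both WT doxorubicin libraries lay above all 6 others, and the mutant groups overlapped. WT control and WT doxorubicin did not overlap for 77.7% of all genes tested. The share of genes with 2 libraries above all 6 others was not computed. The WT response was 0.28 ± 0.08 (adjusted p = 0.00409), but it lost the call without WT control A (0.21, adjusted p = 0.0698). In mutant cells the response was 0.10 ± 0.08 (adjusted p = 0.296, interval -0.06 to 0.26). The difference between the responses, -0.18 ± 0.11, was itself not called (unadjusted p of 0.120, adjusted p = 0.965), so the responses are not shown to differ.

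Tgfb3, a ligand of palate and wound biology, was at 20.5 and 23.5 CPM in WT control and fell to 14.7 and 14.9 CPM with doxorubicin. Mutant cells had 20.9 and 22.2 CPM, falling to 13.7 and 14.7 CPM. All 4 treated libraries lay below all 4 untreated ones, with no order between the genotypes. Control and treated groups did not overlap for 77.7% of all genes tested in WT and 77.1% in mutant cells. The share of genes with all 4 apart from all 4 was not computed. The change was -0.58 ± 0.10 in WT (adjusted p = 4.44e-05) and -0.60 ± 0.10 in mutant cells (adjusted p = 4.26e-05), and the difference between them was -0.02 with an interval of -0.32 to 0.28. Tgfb2 and Tgfb3 thus went opposite ways in WT cells.

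Of the 4 Id genes, Id2 changed most. This repressor of E proteins also binds the retinoblastoma protein. Its levels were 126 and 114 CPM in WT control and 256 and 258 CPM in WT doxorubicin. In mutant cells they were 109 and 110 CPM and, with the drug, 229 and 229 CPM. These rest on 3176 to 8240 counts per library, and no treated library came near an untreated one. Lack of overlap alone was common, at 77.7% of all genes tested in WT and 77.1% in mutant cells. Id2 rose by 1.10 ± 0.07 on the log2 scale in WT (2.14-fold, adjusted p = 1.50e-11) and by 1.06 ± 0.07 in mutant cells (2.09-fold, adjusted p = 3.32e-11). The responses differed by -0.03 ± 0.10, with an interval of -0.24 to 0.17.

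Id3, the close relative of Id1 and in many cells regulated with it, moved the other way. It was at 10.4 and 10.6 CPM in WT control and 5.96 and 6.20 CPM in WT doxorubicin. Mutant cells had 10.7 and 12.6 CPM and, with the drug, 6.04 and 5.61 CPM. All 4 treated libraries were below all 4 untreated ones. Within a genotype, such groups were apart for 77.7% of all genes tested in WT and 77.1% in mutant cells. The change was -0.78 ± 0.13 in WT (adjusted p = 1.88e-05) and -1.002 ± 0.13 in mutant cells (adjusted p = 1.17e-06), and the difference of -0.22 ± 0.18 was not called (adjusted p = 0.991, interval -0.60 to 0.16).

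Id1, the Id gene most often used as a readout of BMP signalling, hardly differed between groups. It was at 19.8 and 20.1 CPM in WT control and 19.1 and 20.3 CPM in WT doxorubicin, and at 18.6 and 21.8 CPM in mutant control and 18.5 and 18.4 CPM in mutant doxorubicin. The response was -0.02 ± 0.10 in WT (adjusted p = 0.901, interval -0.22 to 0.19) and -0.13 ± 0.10 in mutant cells (adjusted p = 0.291, interval -0.34 to 0.08). The libraries overlapped in WT and not in mutant cells, where 77.1% of all genes tested did not overlap. Both intervals leave out a change of the size seen for Id2 or Id3.

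Id4, which can oppose the other Id proteins and is known from neural development, was at 184 and 165 CPM in WT control and 195 and 175 CPM in WT doxorubicin. Mutant control stood higher, at 232 and 216 CPM, and mutant doxorubicin was at 186 and 192 CPM. The order of the group means ran from WT control through WT doxorubicin and mutant doxorubicin to mutant control, and only mutant control stood clear of all the other groups. The WT response was 0.08 ± 0.07 (adjusted p = 0.353). In mutant cells Id4 fell by 0.24 ± 0.07 on the log2 scale (adjusted p = 0.00956). That call was lost without mutant control A (-0.19, adjusted p = 0.105) or mutant doxorubicin A (-0.22, adjusted p = 0.0607). The difference between the responses was -0.32 ± 0.11, with an unadjusted p of 0.00582 and an adjusted p of 0.519.

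Promoter sequences were read for members that moved together or apart, so that the upstream DNA can be set beside the responses. The search of RefSeq's table on GRCm38.p6 matched 6 of the 9 (Tgfb1, Tgfb2, Id2, Id3, Id4, Smad6). It skipped the entries of a single chromosome, so the 3 not matched are not shown to be absent from RefSeq's table. The 250 bases before the start site are given for the 4 matched genes that changed, 5′ to 3′ on the gene's strand. Capitals mark exact matches, on either strand, to CAGAC (reverse GTCTG), the core Smad-binding element, to GGCGCC, a GC-rich Smad element, or to TGACG (reverse CGTCA), the core bound by ATF and CREB factors. CACCTG (reverse CAGGTG), an E-box that E proteins bind, was also searched and matched in none of the 6. Id2 lies at chr12:25096093-25096342 (minus strand), Id3 at chr4:136143572-136143821 (plus), Id4 at chr13:48260866-48261115 (plus) and Tgfb2 at chr1:186705990-186706239 (minus).
Id2: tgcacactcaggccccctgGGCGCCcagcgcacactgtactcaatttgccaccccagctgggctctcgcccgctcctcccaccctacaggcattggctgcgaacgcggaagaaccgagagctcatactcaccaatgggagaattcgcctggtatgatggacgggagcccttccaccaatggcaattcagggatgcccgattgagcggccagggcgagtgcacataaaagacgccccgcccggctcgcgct
Id3: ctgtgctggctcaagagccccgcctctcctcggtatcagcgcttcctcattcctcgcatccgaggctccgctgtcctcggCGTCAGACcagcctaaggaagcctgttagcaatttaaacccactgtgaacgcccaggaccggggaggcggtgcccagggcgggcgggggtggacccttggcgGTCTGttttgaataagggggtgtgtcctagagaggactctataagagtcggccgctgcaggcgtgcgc
Id4: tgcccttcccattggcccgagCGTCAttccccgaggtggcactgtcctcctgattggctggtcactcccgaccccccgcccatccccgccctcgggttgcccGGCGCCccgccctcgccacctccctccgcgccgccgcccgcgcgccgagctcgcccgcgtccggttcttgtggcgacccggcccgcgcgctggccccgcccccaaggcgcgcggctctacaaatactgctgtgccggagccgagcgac
Tgfb2: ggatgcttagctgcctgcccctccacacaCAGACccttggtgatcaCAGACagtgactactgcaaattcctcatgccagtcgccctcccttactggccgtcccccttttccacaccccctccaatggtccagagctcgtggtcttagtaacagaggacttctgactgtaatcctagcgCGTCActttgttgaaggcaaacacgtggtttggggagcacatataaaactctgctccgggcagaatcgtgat

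Id2, which rose, held a single GGCGCC at position -231 from the start. Id3, which fell, held CAGAC at -167 and, on the other strand, at -68, and its TGACG match at -170 shares bases with the first of these. Id4 held GGCGCC at -148 and TGACG at -229, and Tgfb2 held CAGAC at -221 and -204 and TGACG at -72. Tgfb1 and Smad6 matched none of the searched letters. Over all 32851 promoters of this length in the table, CAGAC occurred in 42.2%, TGACG in 17.8%, CACCTG in 17.2% and GGCGCC in 9.59%, so CAGAC and TGACG are common. A match is a description of these letters and not a shown binding site.

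The inhibitory Smads did not pass the test in either response by edgeR, at an adjusted or an unadjusted p under 0.05, and DESeq2 and limma-voom also called 0 of the 2. Smad7, which blocks the TGF-beta and BMP type I receptors, was at 50.3 and 39.9 CPM in WT control and 47.7 and 42.8 CPM in WT doxorubicin. Mutant cells had 53.4 and 47.7 CPM and, with the drug, 46.9 and 47.2 CPM. The WT groups overlapped fully, and the WT response was 0.01 ± 0.10 (adjusted p = 0.947, interval -0.20 to 0.21). The mutant response was -0.10 ± 0.10 (adjusted p = 0.399).

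Smad6, which acts mainly on the BMP branch, was lower in each treated group than in its control without passing the test. It was at 3.27 and 2.99 CPM in WT control and 2.45 and 2.50 CPM in WT doxorubicin. In mutant cells it was at 2.33 and 2.00 CPM and, with the drug, 1.64 and 1.82 CPM. The groups overlapped in neither response, as was so for 77.7% of all genes tested in WT and 77.1% in mutant cells. The change was -0.33 ± 0.19 in WT (adjusted p = 0.142) and -0.32 ± 0.22 in mutant cells (adjusted p = 0.227). Averaged over the genotypes it was -0.33 ± 0.15, just short of a call (adjusted p = 0.0523). With 41 to 102 counts per library, Smad6 was measured less precisely than Smad7.

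**Figure D2:**
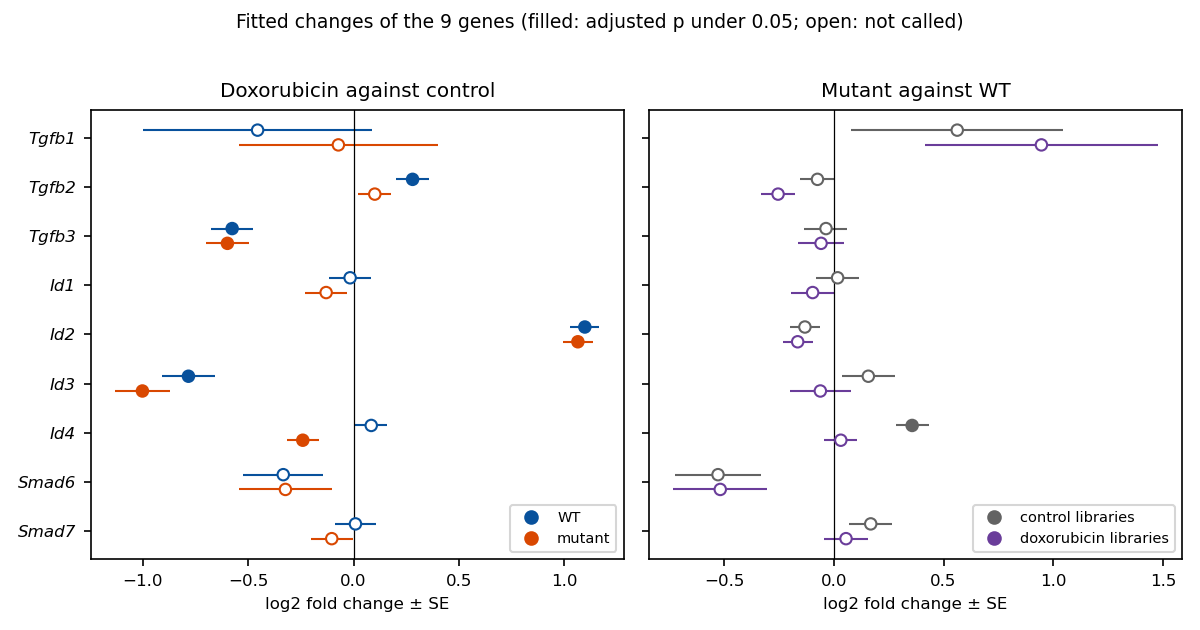
Fitted log2 fold change with its SE for each of the 9 genes in the responses to doxorubicin and in the comparisons of genotypes. Filled points passed an adjusted p under 0.05, and Id2 (1.10 and 1.06), Id3 (-0.78 and -1.002) and Tgfb3 (-0.58 and -0.60) are filled in both responses.

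Without doxorubicin, the genotypes differed in 1 of the 9 genes by edgeR, against 5.92% of all genes tested (2.75% higher, 3.17% lower in mutant cells). Id4 was 1.28-fold higher in mutant than in WT control (0.36 ± 0.07, adjusted p = 0.00379), with the lowest mutant library at 216 CPM and the highest WT library at 184 CPM, a separation that 45.1% of all genes shared. The call was lost without WT control B (0.28, adjusted p = 0.113) or mutant control A (0.31, adjusted p = 0.0764). With the drug the Id4 difference was 0.03 ± 0.07 (adjusted p = 0.878). Smad6 was lower in mutant control, by 0.53 ± 0.20 on the log2 scale, with an unadjusted p of 0.0137 and an adjusted p of 0.146. The remaining 7 members ranged from -0.13 (Id2) to 0.56 (Tgfb1, on 7 to 16 counts), none with an unadjusted p under 0.05.

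Markers of other cell types were not the same in the genotypes either. The summed level of 7 neural and neural crest markers was 44.0 to 44.4 CPM in WT control, 45.7 to 49.4 in WT doxorubicin, 72.7 in both mutant control libraries and 62.8 to 63.0 in mutant doxorubicin, with 6 of the 7 tested and none at 0 in all libraries. Map2 and Sox2 of this list were called higher in mutant control, and Nes lower. The summed level of 6 cartilage and bone markers was 137 to 138, 135 to 156, 159 to 171 and 195 to 198 CPM in the same order of groups. Nearly all of that sum was Sox9 (mean 135 CPM in WT control, 164 CPM in mutant control), which was called higher in mutant control, while Col2a1, the other tested gene of the list, was called lower there (1.89 and 0.493 CPM). Macrophage and leukocyte markers summed to 22.9 to 25.1 CPM in WT control, 31.8 to 32.3 in WT doxorubicin, 31.8 to 32.0 in mutant control and 35.1 to 39.8 in mutant doxorubicin. Of the 8 tested, Ptprc was called higher in mutant control, and Csf1r and Fcer1g were called higher in mutant than in WT cells with the drug. Their part in the Id4 difference was not tested, and in bulk RNA fewer cells of a type and less RNA per cell cannot be told apart. In the doxorubicin libraries the summed level of endothelial markers, in which Tie1 was at 0, was 5.88 to 11.4 CPM, beside 1.37 to 3.05 CPM in the control libraries. Tek was the only called gene of the 3 tested (mean 0.977 to 7.52 CPM in WT, 0.427 to 4.49 CPM in mutant cells), while Kdr went from 1.22 to 0.875 CPM in WT. Of the 8 macrophage and leukocyte markers, 4 rose in WT, where 29.3% of all genes tested were called higher. In the mutant response, with 28.3% of all genes higher, 0 were called by edgeR, at an adjusted or an unadjusted p under 0.05. All 8 were nonetheless above 0 there (median log2 fold change 0.34, beside 0.36 in WT), and 0 were called in the difference of responses. Epithelial markers summed to 1.82 to 2.26 CPM without and 3.72 to 5.80 CPM with the drug, which was mostly Krt19 (mean 1.62 to 5.12 CPM in WT, 1.07 to 3.54 CPM in mutant cells), while Krt18, the other tested gene, was not called (0.285 to 0.244 CPM and 0.528 to 0.258 CPM). Skeletal muscle markers summed to at most 1.10 CPM (Ckm at 0), and erythroid markers to at most 0.469 CPM (Hba-a1, Hbb-b1 and Hbb-bh1 at 0). Their part in the responses of the 9 genes was not tested.

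With doxorubicin, 0 of the 9 genes differed between genotypes by edgeR at the adjusted threshold, and 3 had an unadjusted p under 0.05. Of all genes tested, 7.74% were called at the adjusted threshold (3.92% higher, 3.82% lower in mutant cells). The share of all genes at the unadjusted threshold was not computed, so the 3 members have no background beside them. The 3 were Tgfb2 (-0.25 ± 0.08, adjusted p = 0.0502), Id2 (-0.16 ± 0.07, adjusted p = 0.173) and Smad6 (-0.52 ± 0.21, adjusted p = 0.172), and all 3 were lower in mutant cells without overlap. Non-overlap in this comparison was shared by 47.6% of all genes. Tgfb2 sat at the threshold. DESeq2 (adjusted p = 0.0479) and limma-voom (adjusted p = 0.0498) called it, as did edgeR without WT control A (0.0438), WT control B (0.0470) or mutant doxorubicin B (0.0386).

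The question the design poses most directly is whether the response to doxorubicin differs between the genotypes. Embryo, sex of the cells and Dino allele cannot be told apart here either. In the test of the difference between the responses, 0 of the 9 genes were called by edgeR, and 0 by DESeq2 or limma-voom. Of all genes tested, 9 were called (0.0734%), a count that ran from 0 to 60 as single libraries were left out. At an unadjusted p under 0.05 there was 1 member, Id4, and the share of all genes at that threshold was not computed. For the 3 genes that changed in both genotypes the intervals of the difference were -0.24 to 0.17 (Id2), -0.60 to 0.16 (Id3) and -0.32 to 0.28 (Tgfb3). The interval was narrowest for Id2 and widest for Id3, and equal responses are not shown by any of them.

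**Figure D3:**
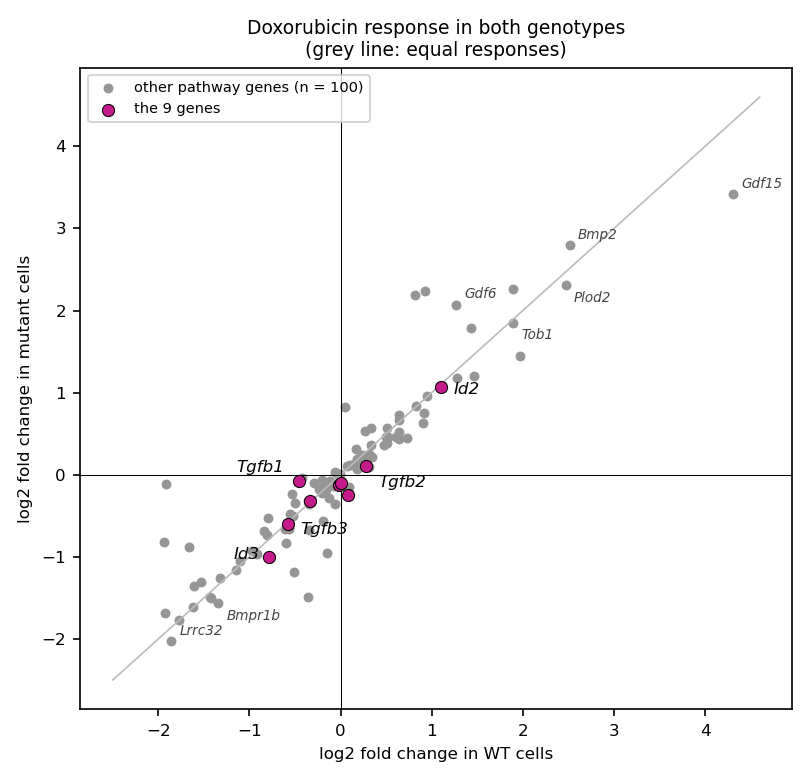
Log2 fold change with doxorubicin in WT cells (x axis) against mutant cells (y axis), with the 9 genes in magenta (5 of them labelled), the other pathway genes in grey and a grey line at equal responses. Id2 (1.10, 1.06) and Tgfb3 (-0.58, -0.60) lie near the line. Id3 (-0.78, -1.002) and Id4 (0.08, -0.24) lie below it, and Tgfb1 (-0.46, -0.07), on few counts, lies above it. The difference of responses was called for 0 of the 9 genes.

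The other genes of the pathway were taken from lists by role, 120 names of which 119 were in the table and 100 were tested. In the WT response 37 rose and 37 fell, and in the mutant response 35 rose and 36 fell. Both counts of called genes are above the 57.4% and 54.2% of all genes, but the lists were chosen with earlier results of these data known. The median change was 0.02 in both genotypes, so there was no common direction. In the difference of the responses 0 of the 100 were called by edgeR, with 11 at an unadjusted p under 0.05. No share of all genes at that unadjusted threshold was computed to set beside the 11. DESeq2 and limma-voom also called 0, while 1 was called lower without WT doxorubicin A and 1 higher without WT doxorubicin B.

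Of 7 TGF-beta receptors and co-receptors tested, 3 rose and 2 fell in WT (median 0.73), and 3 rose and 1 fell in mutant cells (median 0.44). Apart from Tgfbr2, the rises were Eng and Acvrl1 in WT and Eng and Acvr1c in mutant cells, on 3 to 29 counts per library. With a stricter filter of at least 5 CPM in 2 libraries, only 1 rose in each genotype, and 1 fell in WT. Tgfbr2, the type II receptor that binds the ligands, was at 55.8 and 61.6 CPM in WT control and 101 and 94.6 CPM with doxorubicin, a rise of 0.73 ± 0.09 (adjusted p = 2.46e-07). In mutant cells it rose by 0.44 ± 0.09 (adjusted p = 0.000183). Tgfbr1, its type I partner, was not called by edgeR (0.10 ± 0.06 in WT, and -0.15 ± 0.06 with an adjusted p of 0.0550 in mutant cells). In mutant cells it was called lower by limma-voom (adjusted p = 0.0442), and by edgeR with no filter (0.0484), with only the 4 libraries compared (0.0207), and without WT doxorubicin A (0.0238), WT doxorubicin B (0.0327) or mutant control B (0.0417). The receptor counts moved with the tool and with single libraries. DESeq2 gave 1 rise and 1 fall in WT, and limma-voom 2 falls in mutant cells. With edgeR, 1 rose in WT without WT control B, 1 fell in WT without any 1 of WT control A, WT doxorubicin A, mutant control A, mutant control B or mutant doxorubicin A, and 2 fell in mutant cells without any 1 of WT doxorubicin A, WT doxorubicin B or mutant control B.

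Of the 4 BMP receptors, 3 rose and 1 fell in both genotypes, though only 1 rose in mutant cells without mutant control B or mutant doxorubicin A. The one that fell was Bmpr1b, a type I receptor of cartilage, at 46.6 and 43.4 CPM in WT control and 16.4 and 16.8 CPM with doxorubicin (-1.44 ± 0.09, adjusted p = 1.58e-11). In mutant cells it changed by -1.49 ± 0.09 (adjusted p = 1.72e-11). Bmpr2, the type II receptor, rose by 0.64 ± 0.14 in WT and 0.43 ± 0.14 in mutant cells. The mutant call was lost without mutant control B (adjusted p = 0.155) or mutant doxorubicin A (0.218).

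Of 9 tested genes listed as other ligands (BMPs, GDFs and activin subunits), 5 rose and 2 fell in each genotype. The medians were 0.90 in WT and 0.63 in mutant cells. Bmp1, which rose in both genotypes, is on this list by name but encodes a protease, and the 2 medians are its own changes. Only 1 gene of the list fell in WT without WT control B, and in mutant cells with DESeq2 or without mutant control B or mutant doxorubicin B. A filter of at least 5 CPM in 2 libraries also left 1 fall in each genotype. Bmp2, a potent inducer of Id genes, rose from 1.23 and 0.968 to 6.82 and 5.63 CPM in WT (2.51 ± 0.21, adjusted p = 1.85e-09). In mutant cells Bmp2 rose by 2.79 ± 0.22 (adjusted p = 8.23e-10). Gdf6, a joint-forming BMP relative, rose by 1.27 ± 0.16 in WT and 2.07 ± 0.14 in mutant cells. With doxorubicin Gdf6 was higher in mutant (15.01 and 15.85 CPM) than in WT cells (6.46 and 5.48 CPM), by 1.37 ± 0.13 (adjusted p = 5.01e-07), although the difference of its responses, 0.80 ± 0.22, was not called (adjusted p = 0.315).

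Of 11 extracellular antagonists, which trap BMPs or activins, 4 rose and 3 fell in each genotype. The mutant rises were 2 with at least 5 CPM in 2 libraries. Grem1, a BMP trap, fell from 14.5 and 14.2 to 4.41 and 3.94 CPM in WT (-1.78 ± 0.16) and by -1.77 ± 0.18 in mutant cells. Chrd, which encodes the BMP trap chordin, rose by 1.89 ± 0.31 in WT and 2.26 ± 0.36 in mutant cells.

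Of 13 genes for storing and activating latent TGF-beta, 5 rose and 4 fell in WT (3 rose without WT doxorubicin B), and 4 rose and 5 fell in mutant cells. Lrrc32, the anchor GARP that holds latent ligand on the cell surface, fell from 10.7 and 12.03 to 3.18 and 3.10 CPM in WT (-1.86 ± 0.15) and by -2.03 ± 0.18 in mutant cells. Thbs1, thrombospondin 1, an activator of the latent complex, fell from 17189 and 17627 to 6422 and 7488 CPM in WT (-1.32 ± 0.09) and by -1.26 ± 0.09 in mutant cells. Mmp2, a matrix protease, rose by 0.92 ± 0.11 and 0.75 ± 0.12.

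Of the 6 receptor-activated and common Smads, 3 rose and 3 fell in WT, and 2 rose and 2 fell in mutant cells. The WT rises were 1 without WT control A or WT control B, the mutant rises 1 without mutant control A, mutant control B or mutant doxorubicin B, and the mutant falls 1 without mutant control A, mutant control B or mutant doxorubicin A. The mutant falls were also 1 with at least 5 CPM in 2 libraries. Smad9, of the BMP branch, fell from 11.3 and 11.5 to 7.45 and 7.92 CPM in WT (-0.57 ± 0.12) and by -0.59 ± 0.12 in mutant cells. Smad1, of the same branch, rose by 0.27 ± 0.10 in WT and 0.54 ± 0.10 in mutant cells, the former lost without WT control A (adjusted p = 0.0698), WT control B (0.101) or WT doxorubicin B (0.02, adjusted p = 0.870). Smad3, the TGF-beta effector, rose by 0.31 ± 0.08 in WT and 0.25 ± 0.08 in mutant cells, the latter lost without mutant control A (adjusted p = 0.0675), mutant control B (0.0538) or mutant doxorubicin B (0.127).

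Of 14 genes listed as intracellular negative regulators other than Smad6 and Smad7, 5 rose and 5 fell in WT. In mutant cells 6 rose and 5 fell (3 fell with DESeq2, or without mutant control A or mutant doxorubicin A). With at least 5 CPM in 2 libraries, 3 of the list fell in each genotype. Usp15, among the rises in both genotypes, is better known for promoting these signals than for restraining them. Tob1, an antiproliferative protein that restrains BMP Smads, rose from 299 and 270 to 1034 and 1079 CPM in WT (1.89 ± 0.07) and by 1.85 ± 0.07 in mutant cells. Ldlrad4, which keeps Smad2 and Smad3 from the receptor, fell by 0.98 ± 0.13 and 0.93 ± 0.13 on the log2 scale.

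Of 23 TGF-beta target genes tested, 7 rose and 9 fell in WT (4 rose without WT control A), and 5 rose and 9 fell in mutant cells, with medians of -0.12 and -0.04. Ctgf, a matricellular protein, fell from 3807 and 4214 to 1283 and 1354 CPM in WT (-1.60 ± 0.08) and by -1.36 ± 0.08 in mutant cells. Hmga2, a chromatin protein, fell by 1.62 ± 0.07 on the log2 scale in both genotypes. Plod2, a collagen lysyl hydroxylase, moved the other way, from 81.9 and 76.7 to 471 and 409 CPM in WT (2.47 ± 0.08) and by 2.31 ± 0.08 in mutant cells.

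Of 15 BMP target genes tested, a list that holds Id1, Id2, Id3, Smad6 and Smad7 themselves, 2 rose and 6 fell in WT (median -0.33), and 3 rose and 7 fell in mutant cells (median -0.32). Id2 was thus among the few that rose, and Id3 among those that fell. With at least 5 CPM in 2 libraries, only 1 of the list rose and 4 fell in mutant cells. Dlx5, a homeobox gene of bone, fell by 1.93 ± 0.45 and 1.68 ± 0.50 on the log2 scale. Its counts were only 5 to 25 per library, and those of Atoh8 7 to 48. Atoh8, a bHLH gene, fell by 1.53 ± 0.35 in WT and 1.31 ± 0.39 in mutant cells, the latter lost without mutant doxorubicin A (adjusted p = 0.110).

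Of 8 tested E proteins and other partners that Id proteins bind, 2 rose and 5 fell in WT (median -0.54), and 2 rose and 4 fell in mutant cells (median -0.50). Tcf3, which encodes E12 and E47, fell from 52.9 and 55.4 to 29.1 and 31.2 CPM in WT (-0.85 ± 0.08, adjusted p = 1.05e-08) and by -0.69 ± 0.08 in mutant cells. Tcf4, the E protein E2-2, fell by 0.57 ± 0.07 and 0.66 ± 0.07 on the log2 scale, and Tcf12 (HEB) was not called in either response (-0.16 ± 0.08 and -0.19 ± 0.08). Averaged over the genotypes Tcf12 was lower (-0.17 ± 0.06, adjusted p = 0.0143), and in mutant cells it was called lower with the replicate block (adjusted p = 0.0368), with only the 4 libraries compared (0.0483), and without WT doxorubicin A (0.0388), WT doxorubicin B (0.0477) or mutant doxorubicin A (0.0494). Twist2, a mesenchymal bHLH repressor, fell from 21.5 and 20.4 to 8.61 and 7.86 CPM in WT (-1.35 ± 0.11) and by -1.56 ± 0.11 in mutant cells. Ets2, an ETS factor that Id proteins can also bind, rose by 0.83 ± 0.09 in both.

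**Figure D4:**
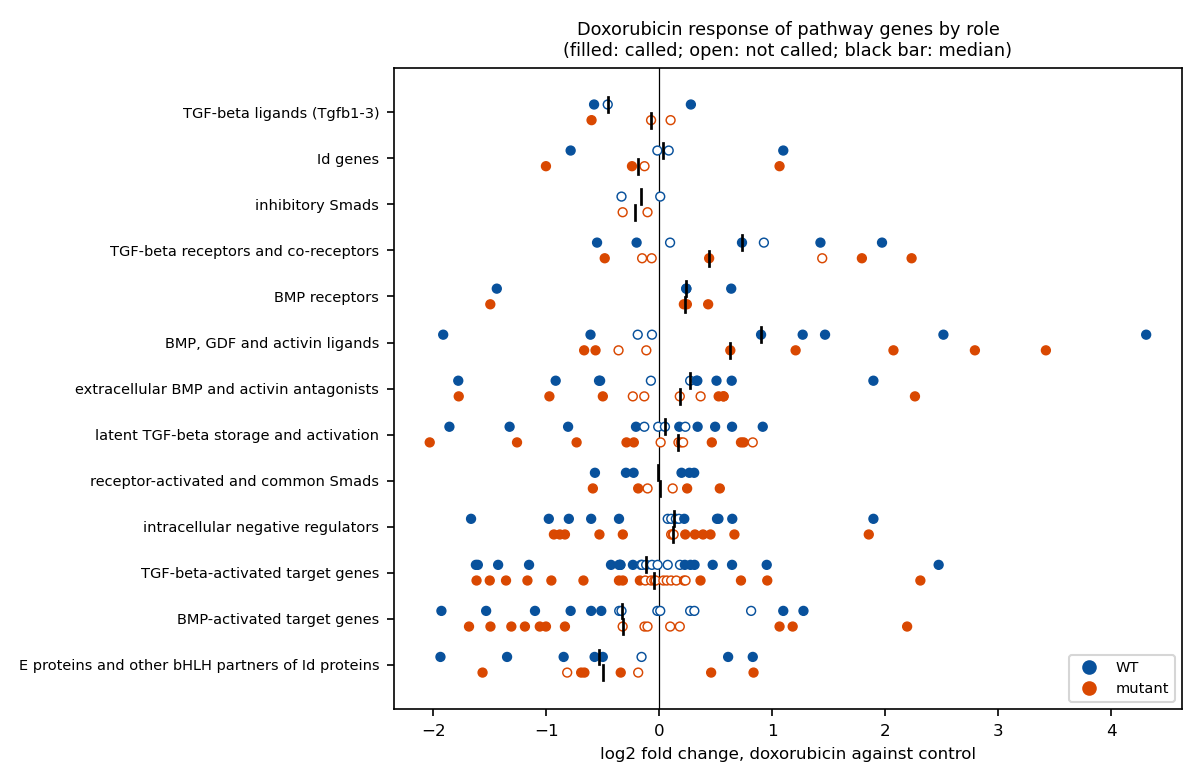
Log2 fold change with doxorubicin of every tested pathway gene, one row per role, blue for WT and orange for mutant cells, filled where called and with a black bar at the median of the row. In WT the median is highest for the BMP, GDF and activin ligands (0.90), a row that includes the protease gene Bmp1. It is lowest for the E proteins and partners (-0.54).

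Between the genotypes, 10 of the 100 other pathway genes were higher and 9 lower in mutant control, against 5.92% of all genes called in either direction, and 6 were higher and 11 lower with doxorubicin, against 7.74%. The numbers in control fell to 3 or 4 higher without any 1 of the 4 control libraries and to 4 or 5 lower without WT control B, mutant control A or mutant control B. With doxorubicin, 7 were lower without WT doxorubicin A or mutant doxorubicin A, and 3 higher without mutant doxorubicin A or mutant doxorubicin B.

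The patterns of the 9 genes were set beside those of 6988 other genes whose average level was 4 CPM or more, by Pearson's r of log2 CPM over the 8 libraries. Those libraries fall into treated and untreated ones, so high values are common and are given as a description. Id2 ran most like Tbx20 and Dixdc1 (both r = 0.999) and most opposite to Pcdh18 and Fam84b (both -0.997). Id3 ran most like Pdgfrb and Ipo9 (both 0.995) and most opposite to Zc2hc1a (-0.995) and Fos (-0.994). Tgfb3 ran most like Ywhah (0.995) and Eif1ad (0.993), and most opposite to Zbtb44 (-0.999) and Zfp37 (-0.998). Id4, whose pattern is not split by treatment, reached less, with Nkap (0.951) and Fastkd3 (0.937) closest and Snrpb2 (-0.911) most opposite. Tgfb2 was closest to Rap1gap2 (0.969) and Bcl2l1 (0.965), Smad6 to Ndnf (0.984), Smad7 to Chm (0.964), Id1 to Map7d1 (0.956) and Tgfb1, on few counts, to Ift57 (0.948). Among the 9 themselves, r was 0.965 for Tgfb3 with Id3, -0.975 for Id2 with Id3 and -0.966 for Id2 with Tgfb3, and Id4 was closest to Smad7 (0.821).

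Some counts may hold reads of other transcripts. In the GENCODE M21 annotation of GRCm38, exons of Id4 overlap A330033J07Rik and Gm49291 on the opposite strand by 82 and 171 bases, exons of Tgfb3 overlap Gm37804 and Gm48008 by 163 and 257 bases, and those of Tgfb2 overlap Gm29491 by 124 bases. Whether the counting used strand is not given in the sources used here, so reads in these stretches cannot be assigned to one gene, and the values of Tgfb2, Tgfb3 and Id4 are uncertain to that extent.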

How the data were processed

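RNA of 8 libraries was analysed. The deposited table holds the authors' raw counts, 1 row per gene name. The submitters' processing notes list Bowtie2, HTSeq and the mm9 build. Versions, annotation and strand setting are not given in the sources used here. The labels speak of 3' sequencing and of an exome-capture kit, and which applies could not be settled. The table has 0 further columns of sample values.

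Counts were filtered with filterByExpr (minimum count 10, total 15, on the 4 groups) and scaled by TMM. They were fitted with edgeR 4.0.16 (quasi-likelihood, 1 coefficient per group, all 8 libraries, 4 residual degrees of freedom, R 4.3.3). The Benjamini-Hochberg method adjusted the two-sided p over 12255 genes, and genes were called under 0.05. The SE is the log2 fold change over the square root of F, and intervals are 95%. Alternatives used DESeq2 1.42.0, limma-voom (limma 3.58.1), other size factors, other filters, a letter block, only the libraries compared, and each library left out. Scripts were tested on simulated data.

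The members and lists were chosen with earlier results of these data known. The genes named are the 9 members, the up to 3 genes per list with the largest called average response plus 10 set genes, and the 2 genes most like and most unlike each member. Not every gene this rule picks is printed. Other genes named are those whose calls make up a count, and the context genes Mdm2, Xist and the Y-linked genes. Promoters are RefSeq's on GRCm38.p6, cut to the 250 bases before the start. No mm9 genome was used, so gene positions in the count table's own build are not given.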

Additional observations from a re-analysis of the deposited data

Results flagged for a closer look

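For Tgfbr1, the type I receptor of the TGF-beta ligands, both WT doxorubicin libraries lay above both WT controls. Both mutant doxorubicin libraries lay below both mutant controls. Groups without overlap were shared by 77.7% of all genes tested in WT and 77.1% in mutant cells. Neither response of Tgfbr1 was called by edgeR (adjusted p = 0.217 in WT and 0.0550 in mutant cells). Its mean level went from 502 ± 7.5 to 537 ± 4.5 CPM in WT and from 571 ± 35 to 514 ± 6.0 CPM in mutant cells (SD, n = 2). The difference of the log2 responses was -0.25 ± 0.09 by edgeR, with an adjusted p of 0.652, so it is not called. Groups of 2 libraries allow no search for single libraries that stand apart.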

How the results depend on the processing

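Over all comparisons of the 9 genes, 743 of 780 alternative values kept their direction and side of the threshold, 23 changed sign, 9 gained and 5 lost a call. Most of the 780 values belong to results not called in the main fit. Many come from fits without a library outside the comparison. The total therefore says little about how firm the calls are. The sign changes concern values near 0. The WT response of Id1 was 0.016 with a filter of 5 CPM, and the difference of responses of Smad6 was -0.0085 with no filter. Leaving out each library gave WT responses of -0.063 to 0.030 (Id1) and -0.15 to 0.18 (Smad7), and mutant responses of -0.31 to 0.22 (Tgfb1). It gave differences of responses of -0.13 to 0.072 (Tgfb3), -0.11 to 0.042 (Id2), -0.10 to 0.11 (Smad6) and -0.28 to 0.049 (Smad7). Mutant minus WT ran from -0.15 to 0.0058 (Tgfb2), -0.13 to 0.070 (Tgfb3) and -0.10 to 0.13 (Id1) in control, and from -0.042 to 0.11 (Id4) and -0.021 to 0.13 (Smad7) with doxorubicin. The average response of Smad7 ran from -0.13 to 0.041.

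Leaving out single libraries gave 1 to 2 members higher in the WT response, 0 to 1 higher in mutant control and 0 to 1 lower in mutant doxorubicin. Tgfb2 was that 1 lower member also with DESeq2, limma-voom, no filter, 5 CPM or the letter block. The 9 genes called in the difference of responses became 18 with DESeq2, 4 with limma-voom, 48 with no filter, 5 with 5 CPM and 0 to 60 with a library left out. Pathway genes called there were 1 lower with no filter and 0 to 1 in each direction with a library left out. Left-out libraries moved the pathway genes called in control to 3 to 13 higher and 4 to 10 lower and all genes to 388 to 858, and with doxorubicin to 3 to 9, 7 to 12 and 535 to 1229. The cause was not tested.

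Whether the library letters pair the libraries is not stated by the labels. A minus B correlated between groups at only -0.02 to 0.03 over the genes tested. That cannot exclude pairing, since noise of single genes also lowers such a correlation. The replicate block gave 14 genes in the difference of responses in place of 9. A filter of 5 CPM leaves Tgfb1 and Smad6 without a value. Fits of only the 4 libraries compared were not run for the difference and the average. Few counts limit Tgfb1 and Smad6, and 2 libraries a group limit every comparison.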
